A study of Drosophila melanogaster with 24 samples.

Results

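The regions described here are the stretches of open chromatin on the arms of chromosome 3 of Drosophila melanogaster, the autosome that carries neither H3.3 gene. They are the regions whose midpoint lies from 0.5 to under 23 Mb on 3L or above 4.6 Mb and up to about 0.5 Mb from the tip on 3R of genome build dm6, which leaves out the sequence around the centromere and at the tips. By this rule 7044 of the 19738 regions in the authors' deposited tables were kept, 3294 on 3L and 3750 on 3R, and 881 further regions of chromosome 3 fell outside the boundaries. The rule used position alone and no measured value.

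The assay was FAIRE, in which DNA not held to nucleosomes by formaldehyde is purified and sequenced, and the tissue was the imaginal wing disc of wandering 3rd instar larvae. The 4 genotypes had 3 libraries each and were an H3.3A null mutant (H3.3A-null), a mutant whose endogenous H3.3B gene encodes arginine at lysine 9 (H3.3B-K9R), the double mutant of both (H3.3-K9R) and yw flies as wild type (WT). In the double mutant the only H3.3 left is therefore the K9R form. The labels name no change to the canonical histone genes in these 4 genotypes, and they do not say whether the libraries of a genotype came from separate animals. The wing disc is an epithelium with muscle precursors and tracheal cells attached, and a change in the cells present cannot be told apart here from a change within cells.

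H3.3 is a variant of histone H3 that is deposited outside S phase, largely at active genes and regulatory sequence but also in heterochromatin. Flies have a pair of genes for it that encode the same protein, H3.3A on the left arm of chromosome 2 and H3.3B on the X. Methylation of lysine 9 of H3 is bound by HP1 and marks heterochromatin, which is concentrated around centromeres, so that arm regions of the kind described here lie mostly in euchromatin, where this mark is sparse.

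The authors compared H3.3A-null, H3.3B-K9R and H3.3-K9R each with WT, and H3.3-K9R with H3.3A-null. The last comparison sets the K9R form of H3.3B against normal H3.3B where H3.3A is absent, and H3.3B-K9R over WT does so where H3.3A is present. A region is called here when its adjusted p-value from DESeq2 in the authors' deposited table is under 0.05, and every one of the 7044 regions had such a value. As a check of the labels, a region at chr2L:5055001-5055291 that reaches into His3.3A, the gene for H3.3A, fell in the authors' deposited table by 1.31 ± 0.19 (log2, standard error) in H3.3A-null and by 1.66 ± 0.20 in H3.3-K9R. In H3.3B-K9R discs that region was not called, at 0.23 ± 0.17 (adjusted p = 0.75).

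Few arm regions changed in any comparison, and in each of them the changes went in both directions. Against WT, H3.3A-null discs had 237 called regions among the 7044 (3.36%), 124 higher and 113 lower. Of all regions tested in the authors' deposited table, a share of 8.80% was called, 4.79% higher and 4.00% lower. In H3.3B-K9R discs 148 regions (2.10%) were called, 81 higher and 67 lower, against 6.53% over all regions, 3.95% higher and 2.58% lower. In H3.3-K9R discs 205 regions (2.91%) were called, 101 higher and 104 lower, against 7.92% over all regions, 4.71% higher and 3.21% lower. With H3.3A absent in both genotypes, H3.3-K9R over H3.3A-null called 74 regions (1.05%), 28 higher and 46 lower, against 6.50% over all regions, 3.71% higher and 2.79% lower. The arms thus held a smaller share of called regions than the whole table in all 4 comparisons, and the smallest share was that of H3.3-K9R over H3.3A-null.

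The changes were mostly modest in size. On the log2 scale of the authors' deposited tables, called regions had median changes of 0.67 upwards and -0.65 downwards in H3.3A-null, 0.69 and -0.68 in H3.3B-K9R, and 0.77 and -0.62 in H3.3-K9R. The corresponding medians for H3.3-K9R over H3.3A-null were 0.48 and -0.62. A change of at least 1 in absolute log2 fold was met at 52, 29 and 46 regions in H3.3A-null, H3.3B-K9R and H3.3-K9R over WT, and at 2 regions in H3.3-K9R over H3.3A-null. Over all 7044 regions the median change was 0.00, 0.00, -0.01 and -0.01 in the 4 comparisons, with a median standard error near 0.16 in each. The estimated median normalized count of a region was 86.4 in H3.3A-null, 87.0 in H3.3B-K9R, 86.5 in H3.3-K9R and 87.9 in WT. Over all regions tested it was 85.3, 86.2, 86.0 and 86.6, and normalization scales the libraries to each other.

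Other chromosomes gave the scale. The arm of 2L, which carries H3.3A, had 4.76%, 5.26% and 4.40% of its 2815 regions called in H3.3A-null, H3.3B-K9R and H3.3-K9R over WT, and 0.284% in H3.3-K9R over H3.3A-null. The X arm, which carries H3.3B, had 8.78%, 11.7% and 12.8% of its 3293 regions called over WT and 9.14% in H3.3-K9R over H3.3A-null. The parts of chromosome 3 outside the boundaries had 17.3%, 6.04% and 7.97% called over WT and 12.1% in H3.3-K9R over H3.3A-null. These shares are descriptions, and no test of the differences between chromosomes was made.

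**Figure D1:**
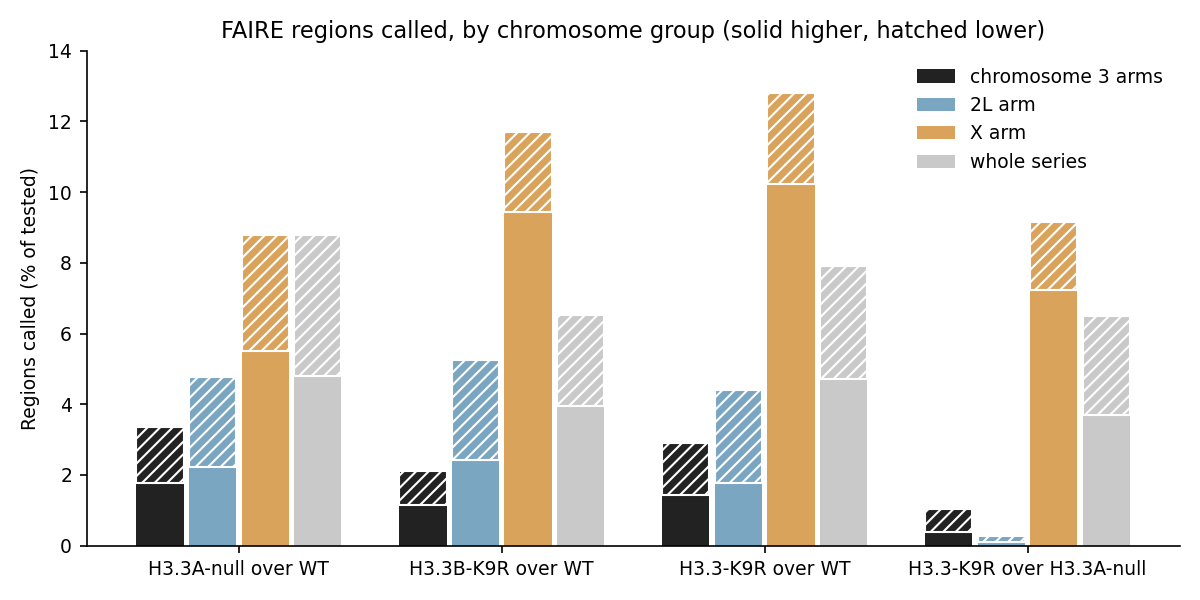
Percentage of FAIRE regions called (adjusted p under 0.05 in the authors' deposited tables) in each of the 4 comparisons, for the chromosome 3 arms, the 2L arm, the X arm and the whole series; solid bars are regions higher and hatched bars regions lower in the first-named genotype. The black bars of the chromosome 3 arms stand at 3.36%, 2.10%, 2.91% and 1.05%, below the grey bars of the whole series each time.

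Within the arms the calls were spread over both 3L and 3R. H3.3A-null over WT called 107 regions on 3L and 130 on 3R, H3.3B-K9R over WT called 60 and 88, and H3.3-K9R over WT called 103 and 102. In H3.3-K9R over H3.3A-null the directions differed between the arms, with 20 regions higher and 14 lower on 3L and 8 higher and 32 lower on 3R, 9 of these 32 lying together at the gene ry. In windows of 2 Mb holding at least 100 regions, the share called in H3.3A-null over WT ran from 1 of 303 regions (0.33%) at 16 to 18 Mb of 3L to 18 of 254 (7.09%) at 12 to 14 Mb of 3R. That window of 3R, which holds ry, also had the highest share in H3.3-K9R over H3.3A-null, 15 of 254 (5.91%). For H3.3B-K9R over WT the highest share was 14 of 234 (5.98%) at 28 to 30 Mb of 3R, and for H3.3-K9R over WT it was 13 of 191 (6.81%) at 30 to 32 Mb of 3R, 8 of the 13 lying together at Sox100B. No window moved as a block, since window medians stayed between -0.04 and 0.05 in the 4 comparisons.

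Most of the regions lay in genes. A gene of the RefSeq annotation (Release 6, the assembly of dm6) overlapped 5416 of them (76.9%), a gene lay within 10 kb of another 1447 (20.5%), and 181 (2.57%) lay farther away. In H3.3A-null over WT, 3.32%, 3.59% and 2.76% of these classes were called. The shares were 1.94%, 2.42% and 4.42% in H3.3B-K9R over WT and 2.64%, 3.73% and 4.42% in H3.3-K9R over WT. In H3.3-K9R over H3.3A-null they were 0.96%, 1.11% and 3.31%, and the class farthest from genes rests on at most 8 called regions in each of the 4.

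The regions ran from 98 to 5747 bases with a median of 327, and their mean normalized count over the FAIRE libraries ran from 3.74 to 2075 with a median of 86.6. Longer regions held more reads almost in proportion: across regions, Spearman's rho of length and mean count was 0.97, given as a description since regions are not replicates. The median density was 271 normalized counts per kb, and the middle 50% of regions lay between 244 and 307. The spread of the changes narrowed with length. In H3.3A-null over WT the interquartile range of the log2 fold change was 0.30 in the shortest quartile (98 to 217 bases) and 0.16 in the longest (494 bases and up), while the median standard error was 0.21 and 0.12.

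Medians shifted slightly with length, upwards in H3.3A-null and H3.3B-K9R over WT and downwards in H3.3-K9R over H3.3A-null. From the shortest to the longest quartile the median log2 fold change went -0.03, -0.03, 0.01 and 0.04 in H3.3A-null over WT and -0.05, -0.01, 0.00 and 0.04 in H3.3B-K9R over WT. In H3.3-K9R over H3.3A-null it went 0.02, 0.00, -0.01 and -0.03, and in H3.3-K9R over WT it stayed between -0.03 and 0.01. All regions of the series in the same length classes shifted by about as much, with -0.02 in the shortest and 0.04 in the longest class of H3.3A-null over WT. The comparisons share libraries, so these shifts are not separate observations, and no test of them was made.

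Among called arm regions, all 4 comparisons had more lower than higher calls in the shortest quartile and more higher than lower in the longest. In H3.3-K9R over H3.3A-null this is the reverse of the shift of its medians. All regions of the series in the shortest class had more higher than lower calls instead. These were 326 against 280 in H3.3A-null, 228 against 185 in H3.3B-K9R and 308 against 223 in H3.3-K9R over WT. In H3.3-K9R over H3.3A-null they were 217 against 189. In the longest class the series also had more higher calls. On the arms, H3.3B-K9R over WT called 13 higher and 23 lower among the shortest 1761 regions, and 37 higher and 21 lower among the longest. H3.3-K9R over H3.3A-null called 3 higher and 14 lower among the shortest, and 17 higher and 7 lower among the longest. Neighbouring regions of the run at ry, described below, are among those 14. In H3.3A-null over WT the shortest quartile had 28 higher and 36 lower and the longest had 47 higher and 25 lower. H3.3-K9R over WT had 21 higher and 32 lower among the shortest and 38 higher and 21 lower among the longest. On the arms, classes by mean count gave a like picture, as they must with counts and lengths so closely tied.

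**Figure D2:**
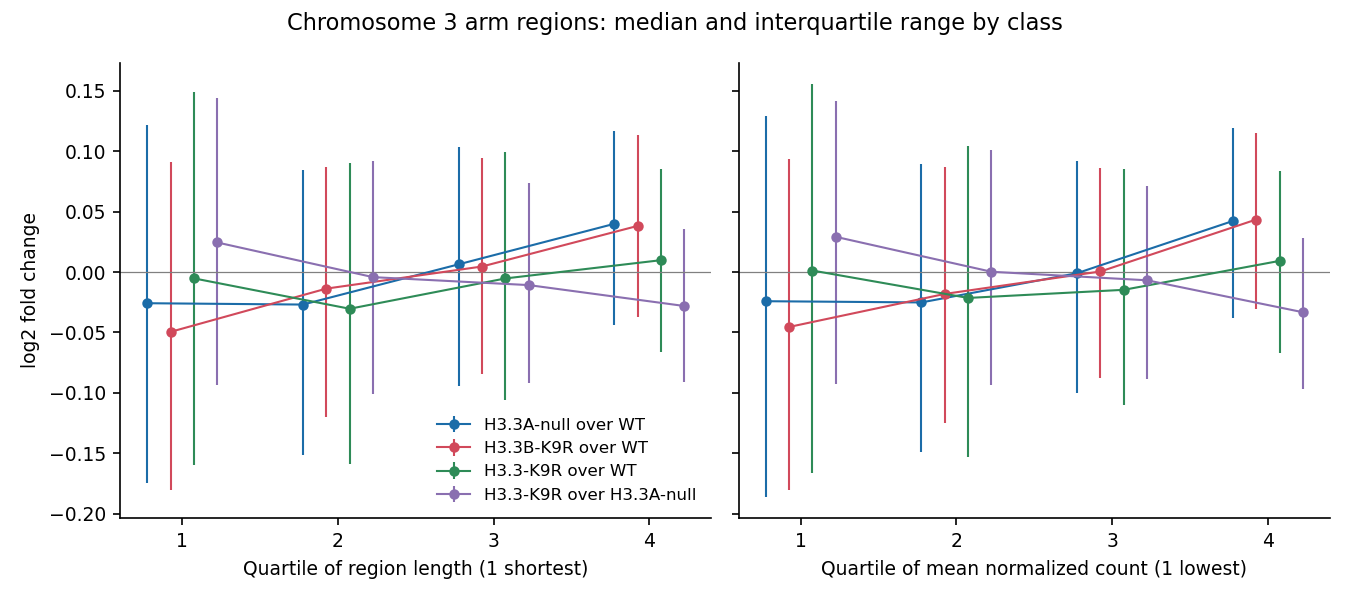
Median log2 fold change (points) and interquartile range (bars) of the chromosome 3 arm regions in each quartile of region length (left) and of mean normalized count (right), in the 4 comparisons. The medians stay between -0.05 and 0.04 and the bars shorten towards long, high-count regions.

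On the arms the share called varied more across quartiles of read density than across those of length. Of the 1761 regions with the lowest density, 37.7 to 244 normalized counts per kb, 144 (8.18%) were called in H3.3A-null over WT. The share was 3.36% over all arm regions and 8.80% over all regions tested. The other quartiles of density had 34, 27 and 32 called. The same quartile held 85 of the 148 called regions of H3.3B-K9R over WT, 119 of the 205 of H3.3-K9R over WT and 39 of the 74 of H3.3-K9R over H3.3A-null. Density and change were measured on the same libraries, so the density of a region and its call are not independent. Shares by density were not worked out over the whole series. Neighbouring regions of the runs described below were counted one by one, though they are not independent. Regions longer than the median length but below the median count numbered 263, and 8.75% of them were called in H3.3A-null over WT.

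Several regions with large rises over WT were short, lay inside genes and differed between WT and all 3 mutants. The region at chr3R:17925934-17926225, inside cpo (couch potato, an RNA-binding protein gene), was estimated at 49.7 normalized counts in H3.3A-null, 76.1 in H3.3B-K9R, 54.8 in H3.3-K9R and 9.25 in WT. These per-genotype levels were worked out from the mean count and fold changes of the authors' deposited tables and have no error of their own. All 3 mutants stood well above WT and near each other. The log2 fold changes over WT were 2.42 ± 0.24 in H3.3A-null, 3.04 ± 0.23 in H3.3B-K9R and 2.57 ± 0.23 in H3.3-K9R, each called, and that of H3.3-K9R over H3.3A-null was 0.14 ± 0.19 (adjusted p = 1.00).

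Several more regions had this pattern. At chr3R:24076995-24077299, inside eIF4EHP, the gene of a cap-binding repressor of translation, the estimates were 55.0 counts in H3.3A-null, 72.8 in H3.3B-K9R, 56.0 in H3.3-K9R and 9.95 in WT. Gnpnat, which encodes an acetyltransferase of amino sugar synthesis, held a region at chr3R:29738309-29738631 with 52.3, 81.1 and 55.9 counts in the 3 mutants and 11.8 in WT. A pair of regions 763 bases apart inside sima, the fly homologue of HIF-1 alpha, began at chr3R:30085060 and chr3R:30086005. They had 43.3, 57.9 and 44.4 counts and 37.2, 48.1 and 43.2 counts in the mutants, against 8.68 and 8.18 in WT. Log2 fold changes over WT at these 4 regions ran from 2.15 to 2.87 in the authors' deposited tables, and none was called in H3.3-K9R over H3.3A-null.

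A pair of regions inside Rdl, a GABA receptor gene, began at chr3L:9164936 and chr3L:9165880 and rose by 1.93 to 2.67 on the log2 scale over WT in the authors' deposited tables. Where WT stood apart from all 3 mutants, a difference between the yw flies and the mutant stocks cannot be told from an effect of the H3.3 mutations. With no library of unselected DNA, a difference in copies of a stretch cannot be told apart there either.

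The mirror image was found at regions that were lowest in all 3 mutants. At chr3R:13387007-13388257, 1251 bases within the span of CG9799, the estimates were 104 counts in H3.3A-null, 103 in H3.3B-K9R, 120 in H3.3-K9R and 356 in WT. The log2 fold changes were -1.77 ± 0.13, -1.79 ± 0.13 and -1.57 ± 0.12. Pka-R1, the gene of a regulatory subunit of protein kinase A, held a region at chr3L:20823152-20823532 with 243, 219 and 209 counts in the mutants and 640 in WT. Its log2 fold changes over WT were -1.40 ± 0.10, -1.54 ± 0.10 and -1.62 ± 0.10. Other regions of this kind lay in Eip75B, an ecdysone-induced nuclear receptor gene (chr3L:18054090-18054410, 39.7, 47.9 and 44.2 counts in the mutants and 131 in WT), in Plp, the pericentrin-like centrosome gene (chr3L:15085310-15085426, 16.4, 14.5 and 14.6 counts, against 38.1 in WT), and 225 bases from lncRNA:CR43912.

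**Figure D3:**
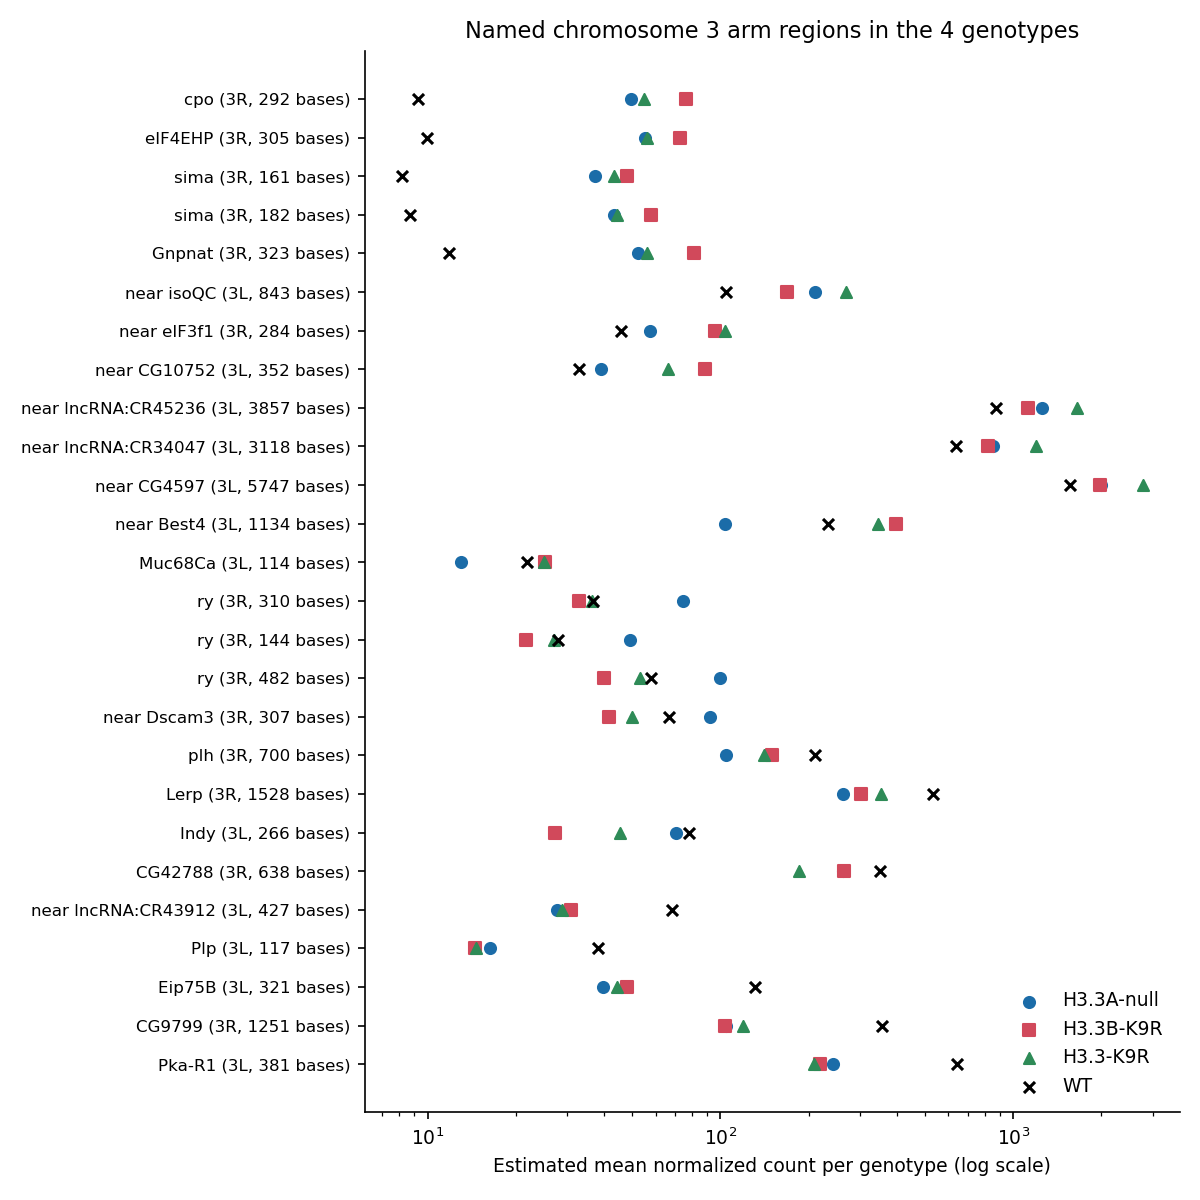
Estimated mean normalized count (log scale) of 26 named chromosome 3 arm regions in H3.3A-null, H3.3B-K9R, H3.3-K9R and WT, each labelled by the gene it overlaps or lies near, ordered by the change in H3.3-K9R over WT. In the top 5 rows WT lies far left of the 3 mutants and in the bottom 5 rows far right, while the ry rows have H3.3A-null alone on the right.

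A second group of regions set the single mutants apart from each other. The region at chr3L:15297298-15298431, 527 bases from Best4, a bestrophin chloride channel gene, was estimated at 104 counts in H3.3A-null, 399 in H3.3B-K9R, 345 in H3.3-K9R and 233 in WT. It fell in H3.3A-null by 1.17 ± 0.13 on the log2 scale and rose in H3.3B-K9R by 0.77 ± 0.12 and in H3.3-K9R by 0.56 ± 0.12. In H3.3-K9R over H3.3A-null its rise of 1.73 ± 0.12 was the largest on the arms (adjusted p = 4.5e-41 in the authors' deposited table). The double mutant here stood nearer to H3.3B-K9R than to H3.3A-null.

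Other regions had H3.3A-null at one end of the 4 genotypes. Inside Muc68Ca, a mucin gene, a region of 114 bases (chr3L:11617545-11617658) had 13.0 counts in H3.3A-null, 25.2 in H3.3B-K9R, 25.03 in H3.3-K9R and 21.8 in WT, and was higher by 0.94 ± 0.25 in H3.3-K9R over H3.3A-null. The region 3938 bases from Dscam3, an adhesion gene of the immunoglobulin superfamily (chr3R:17509605-17509911), had 92.3, 41.7 and 49.9 counts in the mutants and 66.9 in WT, and fell by 0.89 ± 0.17 in H3.3-K9R over H3.3A-null. Over WT it was called in H3.3B-K9R (-0.68 ± 0.19, adjusted p = 0.0057) and not in H3.3A-null (0.46 ± 0.17, adjusted p = 0.075).

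Some regions moved in the genotypes carrying the K9R form and not in H3.3A-null. The region at chr3L:18828382-18828647, which reaches into Indy, the citrate transporter gene, had 70.3 counts in H3.3A-null, 27.1 in H3.3B-K9R, 45.5 in H3.3-K9R and 77.9 in WT. It fell by 1.52 ± 0.20 in H3.3B-K9R and by 0.78 ± 0.19 in H3.3-K9R over WT, and stood at -0.15 ± 0.18 (adjusted p = 0.83) in H3.3A-null. A region 4520 bases from CG10752 (chr3L:12959167-12959518) had 39.1, 88.9 and 66.0 counts in the mutants and 32.9 in WT, and rose in H3.3B-K9R, in H3.3-K9R over WT and in H3.3-K9R over H3.3A-null, by 1.43, 1.00 and 0.76. Likewise the region 1061 bases from eIF3f1, a translation initiation factor gene (chr3R:4715243-4715526), had 57.4, 95.5 and 104 counts in the mutants and 45.8 in WT, with rises of 1.06, 1.18 and 0.85.

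At a few long, high-count regions the double mutant changed most from WT and the single mutants moved the same way. The longest region of the arms, 5747 bases at chr3L:5116163-5121909 and 7590 bases from the nearest gene, CG4597, had 1994 counts in H3.3A-null, 1972 in H3.3B-K9R, 2768 in H3.3-K9R and 1567 in WT. Its log2 fold changes over WT were 0.35 ± 0.06, 0.33 ± 0.06 and 0.82 ± 0.06, and that of H3.3-K9R over H3.3A-null was 0.47 ± 0.06. Regions at chr3L:5104516-5107633 and chr3L:22100926-22104782 had the same order, with rises of 0.90 ± 0.09 and 0.91 ± 0.08 in H3.3-K9R over WT and of 0.36 to 0.51 in the single mutants, all called in the authors' deposited tables. At a region that overlaps the end of CG42788 (chr3R:15131514-15132151) the order was reversed, with 262, 263 and 185 counts in the mutants and 350 in WT. There H3.3-K9R fell by 0.92 ± 0.12 over WT and by 0.50 ± 0.12 over H3.3A-null. The change in H3.3-K9R over H3.3A-null minus that in H3.3B-K9R over WT, tested below, was called at none of these regions. It was 0.14, 0.12, 0.04 and -0.09 in the order given.

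Over WT most called regions stood alone, and some lay near others. Called regions of 1 direction with gaps of at most 5 kb were joined. The 124 higher regions of H3.3A-null over WT formed 84 stretches, 68 of a single region. Its 113 lower regions formed 88, 74 of them single. In H3.3-K9R over WT the 101 higher regions formed 69 stretches, 56 single, and the 104 lower ones 88, 77 single. The same joining was not made for all regions, so how often any regions lie this close is not given. Stretches of 4 or more called regions numbered 7 in H3.3A-null, 4 in H3.3B-K9R and 6 in H3.3-K9R over WT, and 1 in H3.3-K9R over H3.3A-null. They marked 10 separate sites, and in each the regions share a gene or a neighbourhood and are not independent.

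The run with the most called regions lay at ry, the xanthine dehydrogenase gene, where H3.3A-null stood above the other 3 genotypes. Across chr3R:13032279-13037908, 10 regions had a median estimate of 57.3 counts in H3.3A-null, 28.8 in H3.3B-K9R, 32.2 in H3.3-K9R and 33.9 in WT. In H3.3A-null over WT 9 of the 10 were called higher in the authors' deposited table, with log2 fold changes of 0.61 to 1.02 over the 10. None was called in H3.3B-K9R over WT (-0.52 to 0.11) or in H3.3-K9R over WT (-0.25 to 0.28). In H3.3-K9R over H3.3A-null 9 of the 10 were called lower, from -1.04 to -0.62. The double mutant, though it lacks H3.3A too, stood at the WT level. The next region to the left, 983 bases away, was at 0.07 in H3.3A-null over WT (adjusted p = 0.91) and the next to the right, 364 bases away, at 0.54 (adjusted p = 0.15). The uncalled region was a different one in each comparison, at chr3R:13035798 in H3.3A-null over WT (adjusted p = 0.064) and at chr3R:13034737 in H3.3-K9R over H3.3A-null (adjusted p = 0.13). The run covers nearly the whole span of ry, chr3R:13032528-13038020. No library of unselected DNA was used here, so more copies of this stretch and more open chromatin cannot be told apart.

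At Sox100B, which encodes a SoxE-group transcription factor, H3.3A-null and H3.3-K9R were high together. All 8 regions of chr3R:31074372-31081714 were called higher in both over WT, by 1.01 to 1.31 and by 0.75 to 1.46 on the log2 scale of the authors' deposited tables. In H3.3B-K9R 2 of the 8 were called, with values from 0.16 to 0.97. None was called in H3.3-K9R over H3.3A-null (-0.29 to 0.36). The median estimates were 97.4 counts in H3.3A-null, 59.7 in H3.3B-K9R, 105 in H3.3-K9R and 42.1 in WT. The next regions, 5896 bases to the left and 4729 bases to the right, stood at -0.17 and -0.20 in H3.3A-null over WT, and the right one was called lower in H3.3B-K9R over WT (-0.62, adjusted p = 0.0047).

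nAChRalpha1, a nicotinic acetylcholine receptor subunit gene, had the same genotypes high, and H3.3B-K9R at the WT level. Its 5 regions in chr3R:24441093-24445415 had median estimates of 49.8 counts in H3.3A-null, 24.6 in H3.3B-K9R, 55.1 in H3.3-K9R and 29.0 in WT. All 5 were called in H3.3A-null (0.78 to 1.07) and H3.3-K9R (0.91 to 1.18) over WT and none in H3.3B-K9R (-0.35 to 0.03), in the authors' deposited tables. The next region to the right, 8586 bases away, was also called in H3.3A-null (0.64, adjusted p = 0.034), and the next to the left, 80798 bases away, was not (-0.24). Beside Nlg1, a neuroligin gene of the synapse, 4 regions of chr3R:7696434-7702834 were called in both as well, by 0.74 to 1.08 and by 0.85 to 1.32, and 1 of the 4 in H3.3B-K9R.

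Between isoQC, a glutaminyl cyclase gene, and ZnT77C, a zinc transporter gene, 7 regions of chr3L:20477059-20483287 were high in all 3 mutants. The median estimates were 75.9 counts in H3.3A-null, 52.3 in H3.3B-K9R, 80.2 in H3.3-K9R and 31.7 in WT. Calls over WT in the authors' deposited tables numbered 6 in H3.3A-null, 4 in H3.3B-K9R and 6 in H3.3-K9R. The neighbours on either side, 1958 and 3330 bases away, stood at -0.02 and 0.01 in H3.3A-null over WT. Tsp97E, a tetraspanin gene, gave the reverse. The 4 regions in chr3R:26960552-26962670, the first of them 397 bases outside the gene, had median estimates of 23.02, 21.9 and 21.7 counts in the mutants and 41.6 in WT. Of these, 3, 4 and 4 were called lower.

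H3.3A-null had the lowest level at a pair of runs where the double mutant was less affected. Over Lerp, a lysosomal enzyme receptor gene, and IntS12, an Integrator subunit gene, the 4 regions of chr3R:26857877-26864526 had median estimates of 64.0 counts in H3.3A-null, 90.7 in H3.3B-K9R, 101 in H3.3-K9R and 130 in WT. All 4 were called lower in H3.3A-null (-1.12 to -0.88) and in H3.3B-K9R (-1.03 to -0.49) over WT, and 1 in H3.3-K9R (-0.58 to -0.32), in the authors' deposited tables. Against H3.3A-null, H3.3-K9R was higher at all 4, by 0.32 to 0.74, with 2 called. In plh the 7 regions of chr3R:5002486-5009043 had medians of 105 counts in H3.3A-null, 120 in H3.3B-K9R, 128 in H3.3-K9R and 168 in WT, with 5, 2 and 3 called lower over WT and 2 called higher in H3.3-K9R over H3.3A-null.

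H3.3B-K9R was highest along timeout, a relative of the clock gene timeless that also spans 2mit. The 5 regions of chr3R:13143052-13148370 had median estimates of 59.1 counts in H3.3A-null, 93.8 in H3.3B-K9R, 73.4 in H3.3-K9R and 54.7 in WT. All 5 were called higher in H3.3B-K9R over WT, by 0.63 to 0.93 in the authors' deposited table, and 1 of the 5 in each of H3.3A-null and H3.3-K9R. The remaining run, 4 regions of chr3L:5114713-5121909, includes the 5747-base region above and was called whole in H3.3-K9R over WT.

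**Figure D4:**
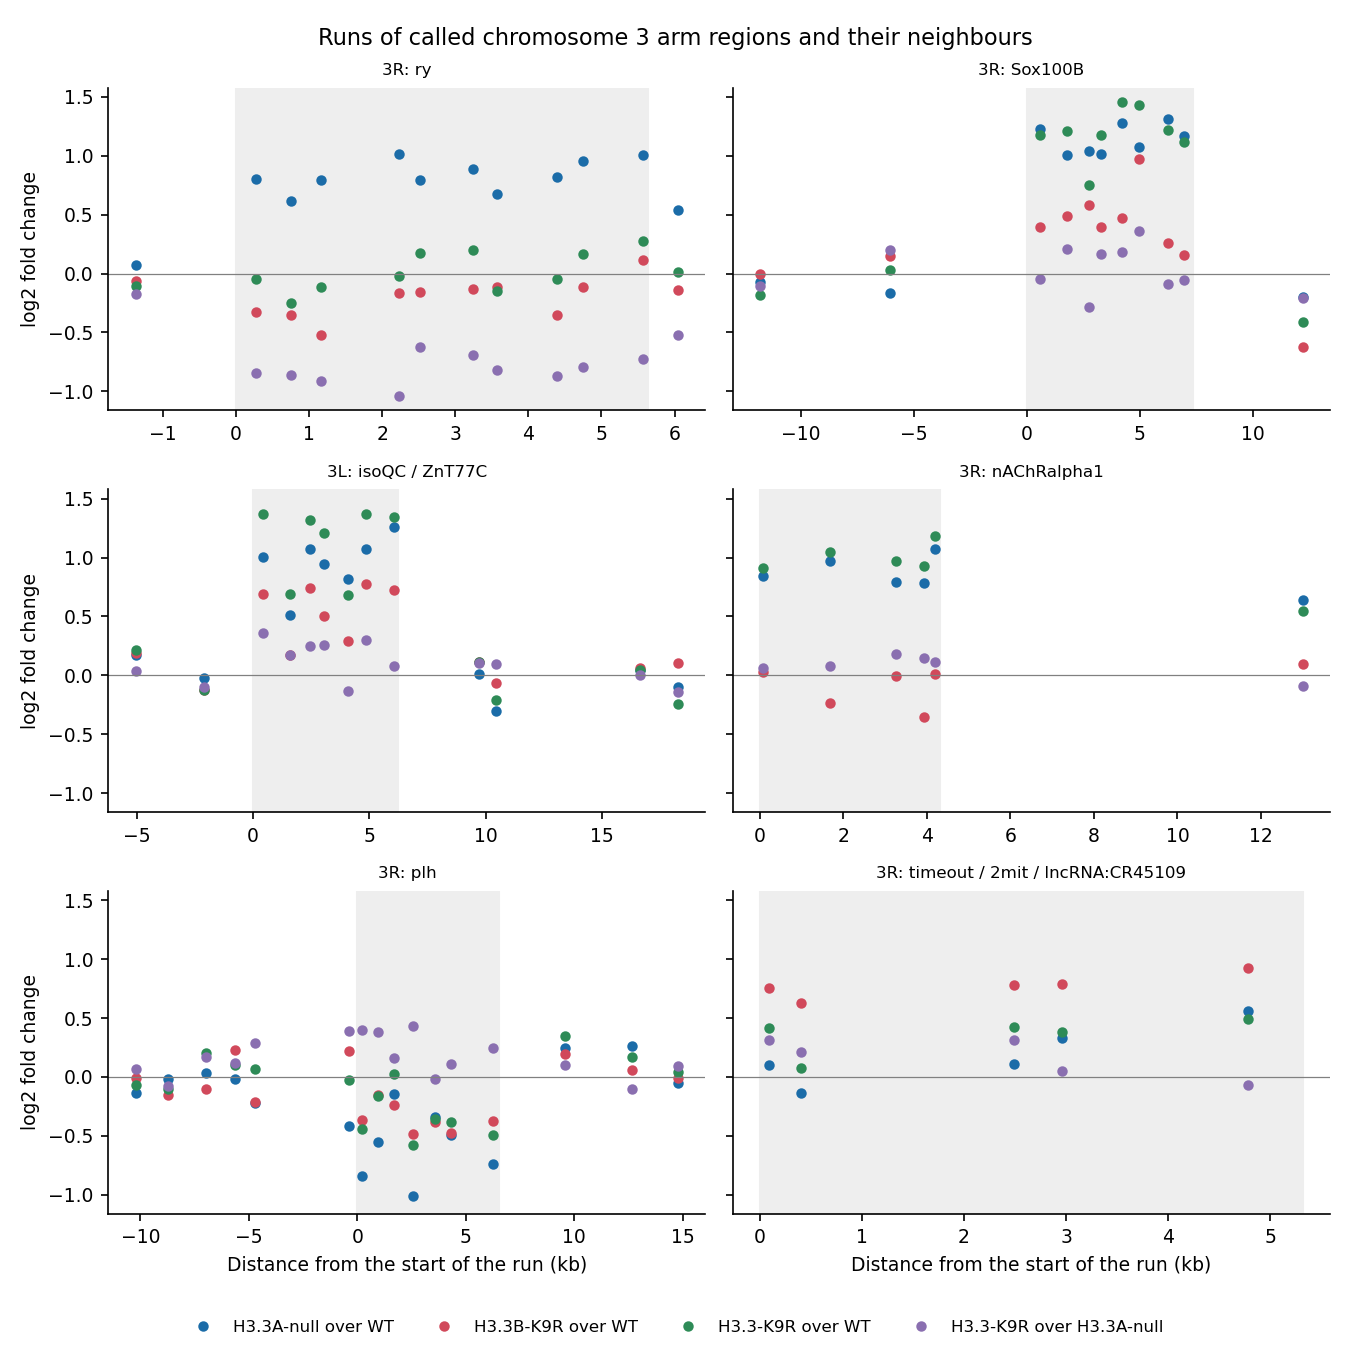
Log2 fold change of each chromosome 3 arm region against the distance of its midpoint from the start of a run (kb), for 6 of the 10 runs and neighbours within 12 kb; grey shading marks the run and colours the 4 comparisons. At ry H3.3A-null over WT lies between 0.61 and 1.02 while H3.3-K9R over H3.3A-null lies between -1.04 and -0.62, and at nAChRalpha1 H3.3B-K9R over WT stays between -0.35 and 0.03.

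The changes seen with the K9R form of H3.3B differed at some arm regions between discs without and with H3.3A. H3.3-K9R over H3.3A-null and H3.3B-K9R over WT share no library, so they can be set side by side. They called 74 and 148 regions, of which 22 were in both, 29.7% of the first and 14.9% of the second. The direction was the same at 19 of the 22 and opposite at 3. Across the 7044 regions Pearson's r was 0.11 and Spearman's rho 0.05, given as descriptions because regions are not replicates.

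The difference between these K9R effects was tested region by region, as H3.3-K9R over H3.3A-null minus H3.3B-K9R over WT, with the authors' deposited standard errors combined and adjustment over all 19733 regions. It was called at 83 arm regions (1.18%), 43 positive and 40 negative, against 4.85% over all regions, 2.49% positive and 2.36% negative. Of the 83, 67 were called in H3.3B-K9R over WT, 12 in H3.3-K9R over H3.3A-null and 9 in neither. The absolute change was smaller in H3.3-K9R over H3.3A-null at 72 of the 83. The 43 positive regions had medians of 0.21 in H3.3-K9R over H3.3A-null and -0.60 in H3.3B-K9R over WT, and the 40 negative ones -0.11 and 0.61. In H3.3A-null and H3.3-K9R over WT the positive regions had medians of -0.84 and -0.51, and the negative ones 0.67 and 0.45. By these medians WT stood apart from all 3 mutants in both sets. The regions in cpo, eIF4EHP, Gnpnat, sima, CG9799 and Pka-R1 described above are among the 83, and WT stood apart at those too. Such a level pattern gives a difference of this kind by arithmetic.

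**Figure D5:**
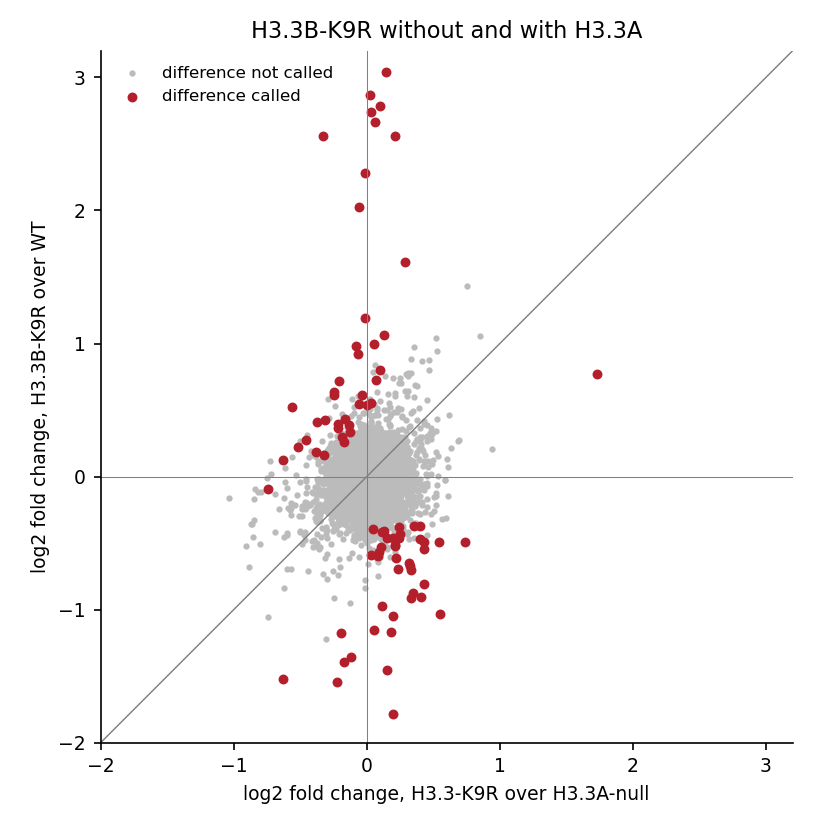
Log2 fold change of each chromosome 3 arm region for H3.3-K9R over H3.3A-null (horizontal) and H3.3B-K9R over WT (vertical); red points are the 83 regions whose difference was called and the diagonal marks equal changes. Most red points lie near the vertical axis line, far above or below 0 in H3.3B-K9R over WT and close to 0 in H3.3-K9R over H3.3A-null.

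The lists below are to be read beside the shares called over all arm regions, 3.36%, 2.10% and 2.91% over WT and 1.05% in H3.3-K9R over H3.3A-null, and no list was tested against them. A list of 11 names headed Hox genes, a group known for setting segment identity, had 10 genes with a region. These had 61 regions and none was called in any of the 4 comparisons by DESeq2, with 4, 2, 2 and 2 at an unadjusted p under 0.05. The 18 regions of the E(spl) complex, the Notch target genes, had none called and none at an unadjusted p under 0.05. Genes of wing disc signalling had 183 regions, of which 4 were called in H3.3A-null, 0 in H3.3B-K9R and 4 in H3.3-K9R over WT, and 0 in H3.3-K9R over H3.3A-null, with 10, 8, 9 and 4 at an unadjusted p under 0.05. Its share of 2.19% in H3.3A-null and in H3.3-K9R was near that of the arms. The called ones lay in or near fz, fz2, neur and dally, genes of Wnt reception, Notch signalling and morphogen transport, and in the authors' deposited tables they ran from -0.59 to 0.58.

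Wing disc transcription factor genes had 164 regions, with 10 called in H3.3A-null (9 higher, 6.10% called), 6 in H3.3B-K9R (4 higher, 3.66%) and 10 in H3.3-K9R (9 higher, 6.10%) over WT, and none in H3.3-K9R over H3.3A-null (1 at an unadjusted p under 0.05). The 8 neighbouring regions of Sox100B made up 8 of the 10 calls in H3.3A-null and 8 of the 10 in H3.3-K9R. The medians over the 164 regions were 0.05, 0.06, 0.05 and -0.02, and those over all the arm regions were 0.00, 0.00, -0.01 and -0.01. Near tara, a cofactor gene, regions went both ways in H3.3B-K9R, to 0.32 ± 0.10 at chr3R:16252749-16253598 and to -0.61 ± 0.15 at chr3R:16260362-16260738.

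Genes of the ecdysone response, the steroid program of metamorphosis, had 135 regions. Over WT, 6 (4.44%) were called in H3.3A-null, 2 (1.48%) in H3.3B-K9R and 4 (2.96%) in H3.3-K9R. In H3.3-K9R over H3.3A-null 1 (0.741%) was called. Eip75B had changes of opposite sign within the gene. Beside the region that was low in all 3 mutants, the one at chr3L:18032835-18033288 had 149 counts in H3.3A-null, 72.8 in H3.3B-K9R, 96.1 in H3.3-K9R and 66.8 in WT. It rose by 1.15 ± 0.15 in H3.3A-null and by 0.52 ± 0.16 in H3.3-K9R over WT, and fell by 0.63 ± 0.14 in H3.3-K9R over H3.3A-null. Inside Eip63E, a cyclin-dependent kinase gene, the region at chr3L:3547003-3547135 rose over WT in all 3 mutants, by 0.90, 1.62 and 1.19.

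Heat shock genes had 34 regions. Of these, 4 (11.8%) were called higher in H3.3A-null over WT, in or near stv and the chaperone genes Hsp70Bb, Hsp70Bbb and Hsp70Bc, and 4 (11.8%) were called lower in H3.3-K9R over H3.3A-null, in or near Hsp70Ab, Hsp70Ba, Hsp70Bb and Hsp70Bbb. Over WT, 1 region (2.94%), at Hsp27, was called higher in H3.3B-K9R and 1, at stv, in H3.3-K9R (0.54 ± 0.15). At Hsp70Bb (chr3R:12505578-12505867) the estimates were 137 counts in H3.3A-null, 86.5 in H3.3B-K9R, 81.8 in H3.3-K9R and 92.5 in WT, so that H3.3A-null stood above the other 3 genotypes, as at ry. At stv H3.3-K9R was also above WT, with 123 counts in H3.3A-null, 102 in H3.3B-K9R, 112 in H3.3-K9R and 77.0 in WT. The Hsp70 genes are near-identical copies, and how the authors assigned reads that fit several of them is not given in the sources used here, so these regions are uncertain and may not be separate.

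Ribosomal protein genes had 36 regions, with 1 (2.78%), 1 (2.78%) and 2 (5.56%) called over WT, all lower, and the region 240 bases from RpS27 (chr3R:25245464-25245715) fell by 1.01, 0.77 and 1.02 in H3.3A-null, H3.3B-K9R and H3.3-K9R. Genes of chromatin and H3.3 factors had 92 regions, with 2 (2.17%), 4 (4.35%) and 2 (2.17%) called over WT and 1 (1.09%) in H3.3-K9R over H3.3A-null. The calls in H3.3A-null were all at tara, which is also in the list of wing disc transcription factors, so these lists share called regions. Inside CTCF, which encodes an insulator protein, the region at chr3L:7356347-7356945 had 114 counts in H3.3A-null, 207 in H3.3B-K9R, 158 in H3.3-K9R and 119 in WT, and was called in H3.3B-K9R (0.80 ± 0.14), H3.3-K9R over WT (0.41 ± 0.14) and H3.3-K9R over H3.3A-null (0.47 ± 0.14). Cuticle genes had 16 regions, of which the 1 near Cpr65Ec (6.25%) was called in each comparison with WT.

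Regions at marker genes of other cells were looked at because a disc preparation can hold them. The 33 regions at muscle markers and the 6 at haemocyte markers had none called in the 4 comparisons, with at most 3 of the 33 and 1 of the 6 at an unadjusted p under 0.05. Tracheal markers had 13 regions, and 1, in verm, was called in H3.3A-null and in H3.3-K9R over WT. Fat body markers had no arm region. Neuron and glia markers had 50 regions. Over WT, 11 (22%) were called in H3.3A-null (10 higher), 5 (10%) in H3.3B-K9R (all higher) and 9 (18%) in H3.3-K9R (all higher). The shares were 3.36%, 2.10% and 2.91% over all arm regions and 8.80%, 6.53% and 7.92% over all regions tested. None of the 50 was called in H3.3-K9R over H3.3A-null (3 at an unadjusted p under 0.05). The medians of the 50 over WT were 0.10, 0.03 and 0.12. The genes called were cpo, fru, nAChRalpha1 and Rdl in H3.3A-null, cpo, fru and Rdl in H3.3B-K9R, and cpo, dsx, nAChRalpha1 and Rdl in H3.3-K9R, and the nAChRalpha1 run alone gave 5 of the calls in H3.3A-null and 5 in H3.3-K9R. The part of nerve cells in these changes was not tested.

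RNA was not measured in these discs. The nearest comparison was made in whole larvae of the first instar, between H3.3A-null larvae with H3.3B-K9R and a wild-type array of canonical histone genes (H3.3-K9R_H3.2-HWT) and larvae with that array alone (HWT), so that tissue, stage and genotype all differ from the discs. RNA loci were matched to 26 genes, at regions named by their change, calls or difference test or lying in runs. Genes named only through a list, such as Rdl and CTCF, are not among the 26, nor are sima and Lerp. Of the 26, 21 had an adjusted p-value in the authors' deposited RNA table and 2 were called, against a background of 4.31% over 7634 loci. The locus of plh was higher by 0.80 ± 0.13 (log2, adjusted p = 2.0e-07), and the locus of timeout, which also spans 2mit, by 0.86 ± 0.11 (adjusted p = 4.0e-12). In discs the FAIRE run at plh had a median log2 fold change of -0.38 in H3.3-K9R over WT, with 3 of its 7 regions called lower. The run at timeout had a median of 0.41 in that comparison, with only 1 of its 5 regions called. The loci of cpo (-0.02), ry (0.03), Pka-R1 (0.02) and nAChRalpha1 (0.08) were not called.

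The regions nearest the boundaries were unremarkable. Just inside, the 8 regions had no call in the 4 comparisons, with changes over WT from -0.51 to 0.21. Just outside, those at the tips and the 3R centromere side were not called either. The first region beyond 23 Mb of 3L, chr3L:23073869-23074739, fell in the authors' deposited tables by 0.52 ± 0.13 in H3.3A-null and by 0.39 ± 0.13 in H3.3B-K9R over WT.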

How the data were processed

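FAIRE libraries came from wing discs of 4 genotypes with 3 libraries each, 12 in all, and were made with the Rubicon ThruPLEX kit, per the labels. The submitters' processing notes name Bowtie2 2.3.2, SAMtools 1.5, bedtools 2.2.25.0, MACS2, DESeq2, TopHat2 2.1.1, Cufflinks 2.1.1 and genome build dm6, with no role given for each. How reads were counted, and reads that fit several places, is not given in the sources used here. Per the file headers, each table is a DESeq2 comparison that holds the mean normalized count per region (a signal, the mean over libraries), the log2 fold change with its standard error, the Wald statistic (a score), the p-value and the adjusted p-value. All of these are as the authors deposited them. No column held a single library, so the depth per library and the spread between libraries are unknown, and p-values measure the spread between these samples only, which may be technical. Standard errors did not exceed 0.267, a limit seen when fold changes are shrunk towards 0, so changes of low-count regions may be understated.

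Each region was placed at the RefSeq genes whose span it touched, otherwise at the closest gene up to 10 kb away. Strand, exons and sequence were not used here. Positions are 1-based. The deposited fold changes close exactly (H3.3A-null over WT plus H3.3-K9R over H3.3A-null equals H3.3-K9R over WT), and levels per genotype were solved from them and the mean count. The difference of K9R effects used a two-sided normal test with Benjamini-Hochberg adjustment. It was tried on normal data simulated with the deposited standard errors and no shrinkage, so its behaviour on the deposited fold changes is not shown. For RNA, a gene was matched to a locus sharing at least 50% of the joint span.

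Named regions were the 4 highest and 4 lowest called in each comparison, up to 8 called in the most comparisons, those called at listed genes (up to 4 per list and comparison), the 4 with the smallest p for the difference, and those at the boundaries; 1 region so chosen is not reported here, so the values printed do not include the largest rise in every comparison. The regions of runs were added after their values were seen. Of 319 names in 14 gene lists 313 matched. The members, lists and rules were chosen with earlier results of these data known. Alternatives were other thresholds, a mean count of at least 20, centring, moved boundaries, merged neighbours, p-values adjusted again, and leaving out runs. Python 3.11.15, pandas 2.3.3, numpy 2.4.6 and scipy 1.17.1 were used.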

Additional observations from a re-analysis of the deposited data

Results flagged for a closer look

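The difference of K9R effects, H3.3-K9R over H3.3A-null minus H3.3B-K9R over WT, was called at 21 of the 60 named regions, with adjustment over all regions. The share called was 1.18% over all arm regions and 4.85% over all regions tested. Named regions were chosen partly by the p-value of this difference and by large changes in H3.3B-K9R over WT. The number at named regions is therefore not a rate. Where WT stood apart from all 3 mutants, such a difference arises by arithmetic. The values below are that difference on the log2 scale, with the standard error.

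The difference was negative at 12 regions, most of them high in all 3 mutants. It was -2.90 ± 0.30 in cpo and -2.85 ± 0.30 in eIF4EHP. In Gnpnat it was -2.68 ± 0.30. The pair of regions in sima had -2.70 ± 0.31 and -2.34 ± 0.32. The pair in Rdl had -2.89 ± 0.33 and -2.61 ± 0.32, and the region in Eip63E had -1.33 ± 0.34. The region near Cpr65Ec, also high in all 3 mutants, had -0.61 ± 0.18. The rest were a region in Eip75B that was high in H3.3A-null (-0.75 ± 0.21), Hsp70Bb (-0.65 ± 0.21) and Hsp27 (-0.48 ± 0.14).

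It was positive at 9 regions. The region in CG9799 had 1.98 ± 0.19 and the one in Eip75B 1.61 ± 0.25. Pka-R1 had 1.32 ± 0.15, Lerp and IntS12 1.24 ± 0.16, Plp 1.23 ± 0.34 and the region near lncRNA:CR43912 1.21 ± 0.36. The region in plh had 0.92 ± 0.19 and the one at Indy 0.89 ± 0.28. Near Best4 the value was 0.96 ± 0.17, and there both changes were upwards, 1.73 without H3.3A and 0.77 with it.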

How the results depend on the processing

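Of 36 alternative settings over the 5 counts of called regions, 31 left the count within 1.5 times its value. Some of these settings could not move a count. Adjusting the p-values again repeated the authors' step and gave the same counts. The fold changes close exactly, so building the difference from the comparisons over WT gave the same 83. The 31 is therefore not a measure of robustness. At an adjusted p under 0.01 in place of 0.05, the counts were 145 for H3.3A-null over WT, 135 for H3.3-K9R over WT, 43 for H3.3-K9R over H3.3A-null and 50 for the difference of K9R effects, fewer because the threshold is stricter. Asking also for an absolute log2 fold change of at least 0.5 left 49 regions in H3.3-K9R over H3.3A-null, of which 26.5% were higher, against 37.8% of all 74. Leaving out runs of 4 or more, a setting added after seeing the data, left 196, 131, 174 and 65 regions in the 4 comparisons.

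No paired analysis was possible because the deposited tables hold no value of a single library. Leaving out each replicate was not run for the same reason, so whether 1 library decides a change at any region is unknown, and no other count test was run. Depth per library is unknown, which limits what short, low-count regions can show, and a region that was not called is not shown to be unchanged.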
